A study of Arabidopsis thaliana with 18 samples.

Results

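The ground tissue of the Arabidopsis root is made of the cortex and the endodermis, the cell layers around the vascular cylinder. Transcripts of 4 genes tied to these layers were followed: JKD (JACKDAW, AT5G03150), BIB (AT3G45260), SCL23 (SCARECROW-LIKE 23, AT5G41920) and CO2 (AT1G62500). They are a list of ground tissue genes, each read from the array feature that the platform's table of probes assigns to that gene alone. Every gene had 1 such feature, so the list covers 4 of the 16722 features named for exactly 1 gene and 4 of the 38408 features on the array. SHR and SCR, which stand at the head of the same pathway, were not analysed here.

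The transcription factor SHORT-ROOT (SHR) moves from the stele into the neighbouring layer, where it acts with SCARECROW (SCR) to specify the endodermis and to drive the division that separates it from the cortex. JKD and BIB are zinc finger proteins of the INDETERMINATE DOMAIN (IDD) family, also called the BIRD proteins, that bind SHR and SCR and help to hold SHR in the ground tissue. SCL23 is a GRAS-domain protein, the closest relative of SCR, and shares with it the task of limiting how far SHR travels. CO2 is a cortex marker, known mostly through its promoter, and encodes a small proline-rich protein with an 8-cysteine motif.

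RNA was hybridised to 18 arrays, 3 for each of 6 groups of seedlings aged 4 days. All groups carry TMO5-GR, a fusion of the vascular basic helix-loop-helix factor TMO5 to the glucocorticoid receptor that enters the nucleus when dexamethasone (DEX) is given, so no group lacks the transgene. Root tips came from the Col-0 ecotype with pRPS5A-TMO5-GR, whose promoter is active in dividing cells, after 1 h on Murashige and Skoog medium (root MS), with DEX (root DEX), with the protein synthesis inhibitor cycloheximide (root CHX) or with both compounds (root DEX+CHX). Sorted cells came from the C24 ecotype with J0571>>pUAS-TMO5-GR, in which the enhancer trap J0571, active in cortex and endodermis, drives both the fusion and green fluorescent protein (GFP). Roots of these plants were held for 2 h on medium (J0571 control) or DEX (J0571 DEX), turned into protoplasts and sorted for GFP-positive cells. Sorted cells and root tips thus differ in ecotype, driver, time, protoplasting and sorting as well as in cell type, and these cannot be told apart. No label says whether replicates were separate cultures, so p-values measure the spread between these arrays, which may be technical. In bulk RNA, fewer cells of a type and less RNA per cell cannot be told apart either.

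Values are log2 signals, and differences are log2 differences tested with limma across all 38408 features, with Benjamini-Hochberg adjustment and a threshold of 0.05 on the adjusted p. Array medians ran from 4.50 to 4.87 and replicates correlated at 0.982 to 0.992 across features, which are not independent. One sorted array stood apart: on the first principal component of the 6 J0571 arrays, which held 32.2% of the variance, J0571 control replicate 3 scored 57.2 and the others -33.7 to 10.1. Results that use it are therefore also given without it, which for the gene lists, neighbours, order of groups and nearest genes was decided after seeing the data.

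In sorted J0571 cells JKD, BIB and CO2 were higher than in root tips, and the difference of SCL23 did not pass. JKD gave 9.10, 8.94 and 9.01 on the root MS arrays and 9.90, 10.03 and 9.74 on the J0571 control arrays. Every sorted array lay above every root MS array. The mean rose from 9.02 ± 0.08 to 9.89 ± 0.15 (SD, n = 3 per group), a difference of 0.87 (SE 0.11, 95% interval 0.64 to 1.11, adjusted p = 9.63e-06), or 1.83-fold.

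BIB, the other zinc finger gene, was read at 6.44, 6.31 and 5.93 in root MS and at 6.57, 6.82 and 7.05 in J0571 control. The groups did not overlap, though the highest root MS array and the lowest sorted array came close. Its means of 6.23 ± 0.27 and 6.81 ± 0.24 differed by 0.58 (SE 0.16, 95% interval 0.24 to 0.92, adjusted p = 0.00678).

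CO2, the cortex marker, had low signals throughout, at 2.88, 3.05 and 3.09 in root MS and 3.48, 3.88 and 3.87 in J0571 control. It lay below the array median on all 18 arrays, yet each sorted control array was above each root MS array. The mean rose from 3.01 ± 0.11 to 3.74 ± 0.23, by 0.73 (SE 0.13, 95% interval 0.45 to 1.01, adjusted p = 0.000255), or 1.66-fold.

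SCL23 was likewise below the median on every array. Its values were 2.94, 2.57 and 2.63 in root MS and 2.70, 2.996 and 2.80 in J0571 control, and the groups overlapped. The difference of 0.12 (SE 0.11, 95% interval -0.12 to 0.36) did not pass (adjusted p = 0.415). Of named features, 49.4% had a lower difference than SCL23, against 88.5% for JKD, 85.2% for CO2 and 80.5% for BIB.

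Thus 3 of the 4 members were called higher in J0571 control cells, where 26.5% of all features were called higher and 30.2% of the features named for exactly 1 gene. The same 3 had groups that did not overlap, as did 28.9% of all features in that direction. The members' median difference was 0.66, beside 0.13 over all named features. Many features differ between the experiments, and the deposited scale does not hold array medians equal: with equal medians the median difference over all features moves from 0.05 to 0.30, and the share of called features that were higher from 54.2% to 71.7%. On that scale SCL23 also passed, at 0.36 (adjusted p = 0.0201, over a range of 0.0201 to 0.568 in 6 alternatives). Measured from the median of all features, the main differences were 0.82 for JKD, 0.68 for CO2, 0.53 for BIB and 0.07 for SCL23. Without J0571 control replicate 3 the differences as deposited were 0.95 for JKD (adjusted p = 1.43e-05), 0.67 for CO2 (0.00169), 0.46 for BIB (0.0372) and 0.14 for SCL23 (0.430).

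**Figure D1:**
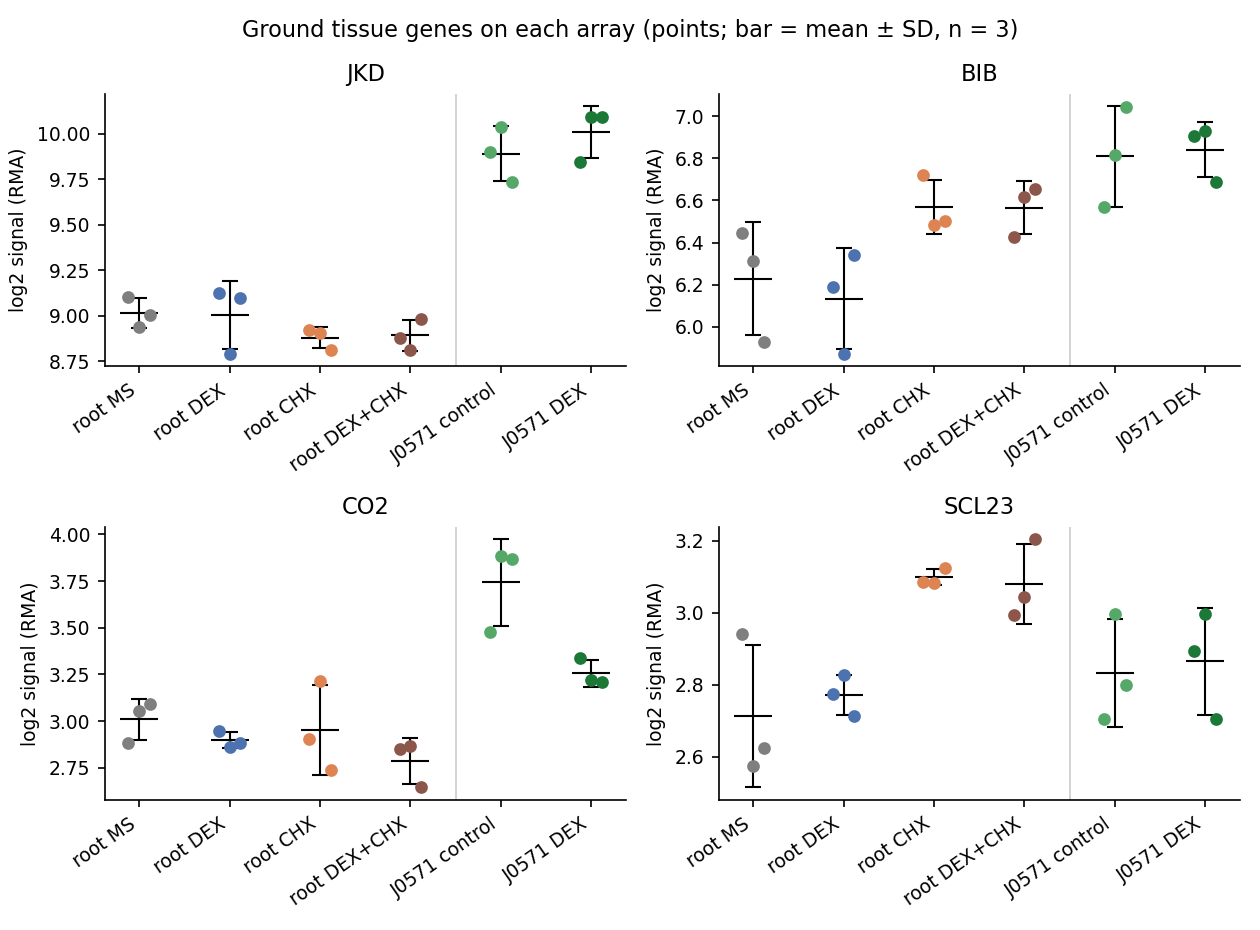
Log2 signal of the 4 genes on each array, with 6 groups along the horizontal axis, 1 point per array and a bar at the mean with its SD (n = 3); a line separates root tips from sorted cells, and each panel has its own vertical range, which does not start at 0. JKD lies between 8.79 and 9.13 in root tips and between 9.74 and 10.09 in sorted cells, and CO2 lies lower in J0571 DEX than in J0571 control.

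The same comparison among DEX-treated samples uses other arrays throughout. JKD gave 9.13, 8.79 and 9.10 in root DEX and 9.84, 10.09 and 10.09 in J0571 DEX, a difference of 1.00 (SE 0.11, adjusted p = 2.19e-06). BIB gave 6.19, 5.87 and 6.34 in root DEX and 6.91, 6.93 and 6.69 in J0571 DEX, differing by 0.71 (SE 0.16, adjusted p = 0.00162). Neither gene's groups overlapped. CO2 was 2.94, 2.86 and 2.88 in root DEX and 3.34, 3.22 and 3.21 in J0571 DEX, and its difference was 0.36 (SE 0.13, 95% interval 0.08 to 0.64, adjusted p = 0.0319). The CO2 groups did not overlap, but leaving out any 1 of these 6 arrays ended the call, with adjusted p of 0.0505 to 0.0969. SCL23 had 2.77, 2.83 and 2.71 in root DEX and 2.89, 2.997 and 2.70 in J0571 DEX, a difference of 0.09 (SE 0.11, adjusted p = 0.523). Again 3 of 4 members were called higher, beside 27.4% of all features, and 3 of 4 had no overlap, beside 32.0%. With equal medians the share of higher calls among all called features went from 53.7% to 74.6%, and SCL23 passed at 0.41 (adjusted p = 0.00868, over a range of 0.00868 to 0.617 in 6 alternatives).

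The sorted population was checked against markers of the layers it should and should not hold. Of 25 genes on a ground tissue list, 8 had a feature named for exactly 1 gene, the 4 members among them. Of these 8, 6 were higher in J0571 control than in root MS and 1 was lower, beside 30.2% and 19.1% of the named features. Without the members, 3 of 4 were higher and 1 was lower. Beside the members, AT1G09750 rose from 6.58 ± 0.26 to 10.57 ± 0.40, by 3.99 (SE 0.26), AT4G28100 by 1.15 (SE 0.19) and GSO1, a receptor kinase needed for an unbroken Casparian strip, by 0.58 (SE 0.09). AT1G61590, on the list as SGN1, was lower, with a difference of -0.93 (SE 0.11). All 4 had adjusted p of at most 0.000105. Over the 8 genes, members included, the mean log2 signal was 6.93 to 7.18 in root MS and 7.79 to 8.07 in J0571 control. The largest difference among the 8 was that of AT1G09750. These 8 calls or non-calls were the same under quantile normalization and without J0571 control replicate 3. With equal medians SCL23 was called as well, which made 7 higher and 1 lower.

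Markers of other layers moved in both directions, where 30.2% of the named features were called higher and 19.1% lower. The root hair expansins EXPA7 and EXPA18, the 2 measured genes of 16 epidermis and root hair markers, were lower in J0571 control, with differences of -2.50 and -2.27, and their mean log2 signal was 9.57 to 9.68 on root MS arrays and 6.95 to 7.57 on J0571 control arrays. Among 4 measured of 31 stele and vascular markers, PHV, a class III homeodomain-leucine zipper factor, was lower (-1.31, SE 0.12), LHW, the partner of TMO5, was higher (0.52, SE 0.09), and OPS (0.14) and AT5G02460 (-0.13) did not pass. The mean of these 4 ran from 6.09 to 6.39 in root MS and from 5.89 to 6.15 in J0571 control. The 5 root cap markers were not analysed here. All 3 measured genes of 25 on a wounding and early stress list were higher in sorted cells: ORA47, a jasmonate-inducible AP2/ERF factor, by 4.63, the phosphatase gene AP2C1 (AT2G30020) by 2.22 and the zinc finger gene STZ by 1.09. Their mean log2 signal was 6.22 to 6.50 in root MS and 8.96 to 9.16 in J0571 control. All calls and non-calls of these 9 markers were the same without J0571 control replicate 3, while the median difference of the 4 stele and vascular markers went from 0.01 to -0.13. The deposited values hold no call against background, so how far these markers lie above it is unknown. The part of these other changes in the members' differences was not tested.

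**Figure D2:**
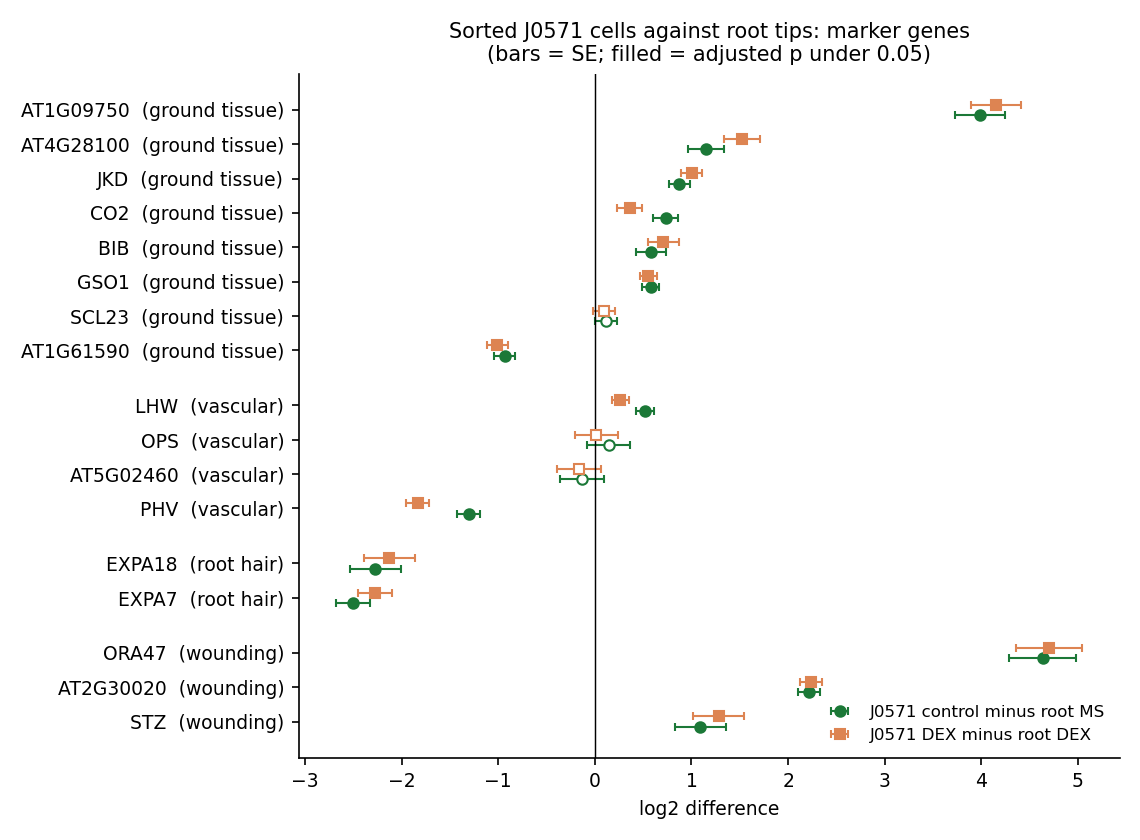
Log2 difference between sorted J0571 cells and root tips for the measured markers, on the horizontal axis, as circles for the control samples and squares for the DEX-treated samples, with bars for 1 SE and filled symbols where the adjusted p was under 0.05. JKD, CO2 and BIB lie to the right of 0 with AT1G09750, AT4G28100 and GSO1, SCL23 lies near 0, EXPA7 and EXPA18 lie to the left, and the 3 wounding genes lie to the right.

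Comparing J0571 DEX with J0571 control asked what changes in ground tissue cells when roots are held for 2 h on DEX before sorting. As no group lacks TMO5-GR, its effect and that of DEX itself cannot be told apart. None of the 4 members passed, beside 0.0338% of all features (13) that did and 2239 features at an unadjusted p under 0.05. CO2 was the member with the largest difference. All 3 J0571 DEX arrays, at 3.34, 3.22 and 3.21, were below all 3 J0571 control arrays, as for 6.03% of all features. Its mean was 3.74 ± 0.23 without DEX and 3.26 ± 0.07 with it, a difference of -0.49 (SE 0.14, 95% interval -0.83 to -0.14, unadjusted p = 0.0129), and 1.56% of named features had a lower one. After adjustment it did not pass in the fit of the 6 J0571 arrays (adjusted p = 0.779), in the fit of all 18 (0.242) or in any of 7 alternatives (0.242 to 0.812). Without J0571 control replicate 3 the difference was -0.42 (adjusted p = 0.706).

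The other 3 genes had differences near 0 with DEX in J0571 cells, and their groups overlapped. JKD differed by 0.12 (95% interval -0.20 to 0.43), BIB by 0.03 (-0.34 to 0.40) and SCL23 by 0.03 (-0.29 to 0.35), with adjusted p of 0.933 to 0.987. Without J0571 control replicate 3 these were 0.04, 0.15 and 0.02.

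In root tips 1 h of DEX was tested alone and under CHX. With DEX alone JKD differed by -0.01 (95% interval -0.24 to 0.22), CO2 by -0.11 (-0.39 to 0.16), BIB by -0.09 (-0.44 to 0.26) and SCL23 by 0.06 (-0.18 to 0.29). The groups of all 4 genes overlapped, and adjusted p ran from 0.980 to 0.998. No member passed, as for 0% of all features in the limma fit, although 2368 features had an unadjusted p under 0.05. Under CHX, root DEX+CHX against root CHX gave 0.01 for JKD (95% interval -0.22 to 0.24), -0.16 for CO2 (-0.44 to 0.11), -0.00 for BIB (-0.35 to 0.35) and -0.02 for SCL23 (-0.25 to 0.22). Here too every gene's groups overlapped, all adjusted p were 1.00, and limma called 0% of features, although 1189 reached an unadjusted p under 0.05. The interaction of DEX and CHX was 0.02 for JKD, -0.05 for CO2, 0.09 for BIB and -0.08 for SCL23 (adjusted p = 0.999 each). Of all features 0% passed here, while 1684 had an unadjusted p under 0.05.

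In each of these 3 settings all DEX-treated arrays lay below the mean of their controls for CO2, a pattern picked out after its values were seen. Single DEX arrays were -0.15 to -0.07 from the root MS mean, -0.31 to -0.08 from the root CHX mean and -0.53 to -0.40 from the J0571 control mean. None of these differences passed the test. For SCL23 all root DEX arrays lay above the root MS mean, by 0.000549 to 0.113. The share of all features with such a pattern was not computed. The response to DEX in J0571 cells minus that in root tips was -0.37 for CO2 (SE 0.18, adjusted p = 0.825), 0.13 for JKD (SE 0.16, 0.978), 0.13 for BIB (SE 0.23, 0.992) and -0.03 for SCL23 (SE 0.16, 0.999). So 0 of the 4 members passed, beside 0.0521% of all features (20). Without J0571 control replicate 3 the values were -0.31 for CO2, 0.05 for JKD, 0.24 for BIB and -0.04 for SCL23, with adjusted p of 0.787 to 0.984. The CO2 value is also the change in its sorted-cell difference, from 0.73 without DEX to 0.36 with it, and that change did not pass.

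**Figure D3:**
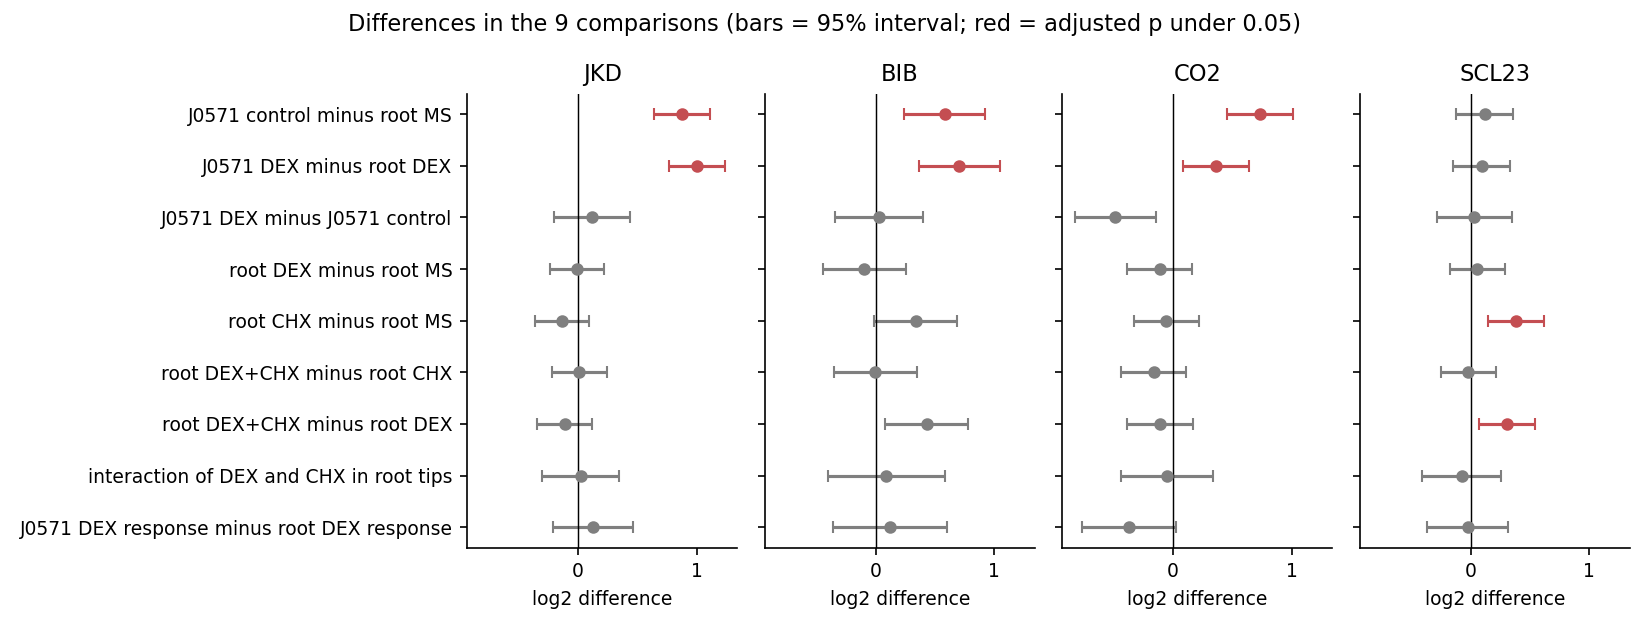
Log2 difference of each gene in the 9 comparisons, with the 95% interval as a bar and red where the adjusted p was under 0.05. The red values are the comparisons of sorted cells with root tips for JKD, BIB and CO2, and the comparisons with CHX for SCL23.

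CHX blocks translation, and its comparison with root MS asks which transcripts change when no new protein is made. Among the 12 root arrays the first principal component, with 69.8% of the variance, put arrays with CHX at -83.6 to -73.3 and arrays without it at 67.0 to 83.6. With CHX the differences of JKD, BIB and CO2 did not pass, although that of BIB was 0.34, and SCL23 was called higher. Its values were 2.94, 2.57 and 2.63 in root MS and 3.09, 3.08 and 3.12 in root CHX. All CHX arrays were above all root MS arrays. Means of 2.71 ± 0.20 and 3.10 ± 0.02 differed by 0.38 (SE 0.11, 95% interval 0.15 to 0.62, adjusted p = 0.0192), or 1.31-fold. This was 1 of 4 members called higher, beside 10.4% of all features called higher. The groups of SCL23 and of BIB did not overlap in that direction, as for 14.5% of all features. Leaving out root MS replicate 2 or 3, or root CHX replicate 1 or 3, ended the call, with adjusted p up to 0.0704.

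BIB was 6.72, 6.48 and 6.50 in root CHX, and each of these arrays was above each root MS array, as for 14.5% of all features. Its difference of 0.34 (SE 0.16, 95% interval -0.01 to 0.69) did not pass (adjusted p = 0.133). JKD was 8.92, 8.90 and 8.81 in root CHX, all below the root MS arrays, as for 30.2% of all features, with a difference of -0.14 (SE 0.10, adjusted p = 0.365). CO2, at 2.90, 3.22 and 2.74, overlapped with root MS and differed by -0.06 (SE 0.12, adjusted p = 0.771). CHX arrays had lower medians, so that the median difference over all features was -0.13, and equal medians moved it to 0.04 and the share of called features that were higher from 34.5% to 61.2% (49.2% with quantile normalization). Measured from the median of all features, SCL23 differed by 0.52, BIB by 0.47, CO2 by 0.08 and JKD by -0.00. With equal medians the difference was positive for all 4 genes, and BIB passed at 0.51 (adjusted p = 0.0356, over a range of 0.0356 to 0.170 in 7 alternatives).

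In the presence of DEX the group means come from the other 6 root arrays, while the spread is estimated over all 12 in both comparisons. SCL23 was 2.77, 2.83 and 2.71 in root DEX and 2.99, 3.04 and 3.20 in root DEX+CHX, without overlap, and rose by 0.31 (SE 0.11, 95% interval 0.07 to 0.54, adjusted p = 0.0447). It was again 1 of 4 members called higher, beside 11.6% of all features, and with BIB 1 of 2 whose groups did not overlap in that direction, beside 15.2%. Leaving out any 1 of these 6 arrays ended this call, with adjusted p of 0.0540 to 0.145. BIB was 6.42, 6.62 and 6.66 in root DEX+CHX against 6.19, 5.87 and 6.34 in root DEX, without overlap. Its difference of 0.43 (SE 0.16, 95% interval 0.08 to 0.78) did not pass (adjusted p = 0.0586), though 5 of 7 alternatives called it (adjusted p = 0.00971 to 0.0855 over the 7). JKD, at 8.88, 8.82 and 8.99, and CO2, at 2.85, 2.87 and 2.65, had differences of -0.11 each (adjusted p = 0.446 and 0.549), which turned positive with equal medians. The median difference over all features was -0.13 here as well, and the share of called features that were higher went from 34.5% to 63.1% with equal medians and to 49.1% with quantile normalization.

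The wounding and early stress genes moved with CHX too: all 3 rose, by 3.13 to 3.40, and their mean log2 signal was 9.39 to 9.92 in root CHX. Of the named features 13.3% were called higher with CHX. EXPA7 and EXPA18 did not pass (-0.51 and -0.41). Of the stele and vascular markers AT5G02460 rose by 1.47 and the other 3 did not pass. The part of these changes in the SCL23 difference was not tested.

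Ordered by mean, JKD ran from J0571 DEX and J0571 control, whose ranges overlapped, to root MS, 0.87 below, and then root DEX, root DEX+CHX and root CHX, each overlapping with its neighbour. CO2 ran from J0571 control to J0571 DEX, 0.49 below, and root MS, another 0.25 below, without overlap at either step. Then came root CHX, root DEX and root DEX+CHX, which overlapped. For the first of these steps 6.03% of all features had no overlap in that direction. The step from J0571 DEX to root MS joins unlike treatments and was not tested, and its share over all features was not computed. BIB ran from J0571 DEX and J0571 control through root CHX and root DEX+CHX to root MS and root DEX, and each range overlapped with the next. SCL23 had a different order, from root CHX and root DEX+CHX through J0571 DEX and J0571 control to root DEX and root MS, also with overlap at each step. The order and the overlaps were the same for all 4 genes without J0571 control replicate 3.

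The families of the members were compared next. Of 16 IDD genes 5 had a feature of their own. JKD, BIB and AT1G14580, which rose from 8.45 ± 0.24 to 9.63 ± 0.03 (difference 1.18, SE 0.13, adjusted p = 2.52e-06), were higher in J0571 control than in root MS. Of the named features 30.2% were called higher. AT5G60470 (0.14) and IDD16 (-0.12) did not pass. The same 3 were called without J0571 control replicate 3, and those 2 differences turned to -0.05 and 0.02. Among the 3 measured IDD genes other than JKD and BIB, 1 was called higher with all arrays. Their median difference was 0.14, beside 0.13 over all named genes. With CHX none of the 5 passed against root MS. With equal medians BIB did, and against root DEX AT1G14580 rose by 0.45 (SE 0.15, adjusted p = 0.0380).

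SCL23 belongs to the GRAS family, of which 13 of 32 listed genes were measured. In J0571 control 5 were higher than in root MS and 3 were lower, beside 30.2% and 19.1% of the named features. Among the 5 were AT2G37650 (1.05), AT3G49950 (0.67), AT3G46600 (0.65) and AT3G50650 (0.58), and among the 3 were AT2G29060 (-1.84) and AT5G66770 (-0.40). The family median was 0.12, beside 0.13 over all named genes. With equal medians 7 were called higher and 1 lower. The same 8 were called without J0571 control replicate 3, with a median of 0.23.

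With CHX, 6 of the 13 GRAS genes rose against root MS and 1 fell, where 13.3% of the named features were called higher and 12.4% lower. The family median was 0.38, beside -0.05 over all named genes. AT5G59450 rose by 2.20 (SE 0.18, adjusted p = 8.10e-06), AT3G46600 by 1.82 (SE 0.10, adjusted p = 4.00e-07), AT1G07520 by 1.24 and AT3G50650 by 0.88. SCL23, at 0.38, had the smallest rise of the 6. AT1G63100 fell by 0.33, a call that was lost with equal medians, where 7 rose and 0 fell. No gene of the IDD or GRAS lists passed in any of the 5 comparisons of a response to DEX (DEX in root tips, under CHX and in J0571 cells, the interaction and the difference of responses).

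**Figure D4:**
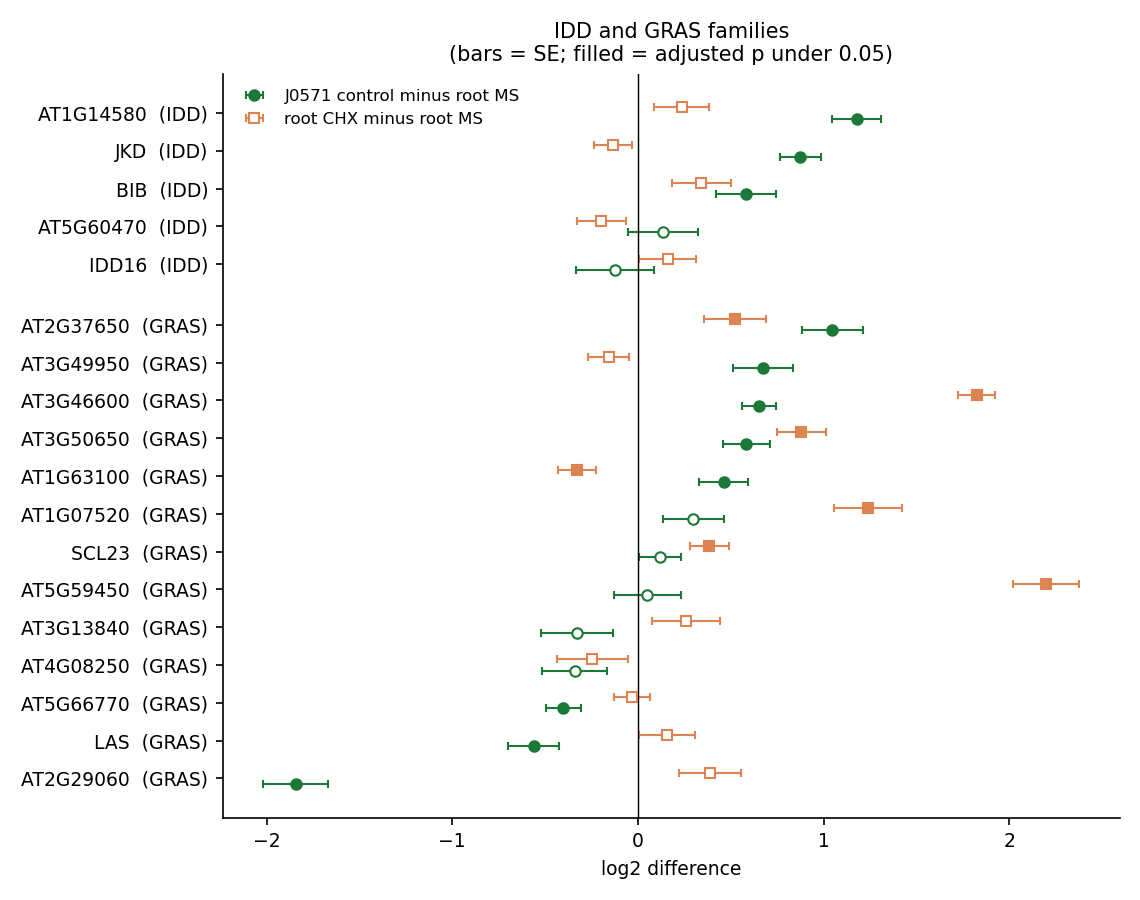
Log2 difference of the measured IDD and GRAS genes between J0571 control and root MS (circles) and between root CHX and root MS (squares), with bars for 1 SE and filled symbols where the adjusted p was under 0.05. JKD and BIB lie to the right in sorted cells and near 0 or unfilled with CHX, while SCL23 is filled with CHX only.

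CO2 was set beside 13 other measured genes of 21 listed for small 8-cysteine proteins. Of these 14, 7 were higher in J0571 control than in root MS and 3 were lower, beside 30.2% and 19.1% of the named features. Their median difference was 0.36, and 0.03 without CO2, beside 0.13 over all named genes. AT2G45180 rose by 3.10, AT4G12530 by 1.27, AT4G15160 by 1.25 and CO2 by 0.73. The 3 lower genes had far larger differences: AT4G12545 had -4.94 (SE 0.25), AT5G46890 -4.83 (SE 0.33) and AT1G62510 -4.62 (SE 0.18). AT1G62510 is the next gene after CO2 in the reference order, and its mean log2 signal went from 6.95 ± 0.20 in root MS to 2.34 ± 0.07 in J0571 control while that of CO2 rose. The gene before CO2, AT1G62490, did not pass (0.26, SE 0.20, adjusted p = 0.308). All 10 calls of this list were the same under quantile normalization, with equal medians and without J0571 control replicate 3.

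**Figure D5:**
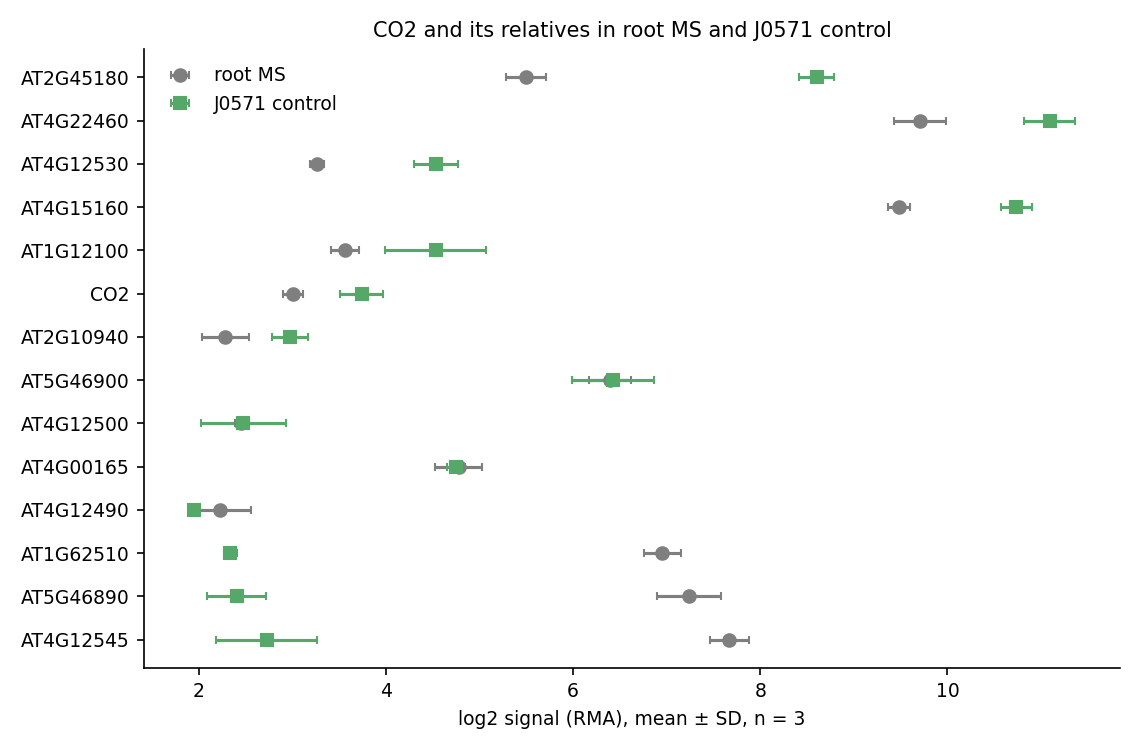
Mean log2 signal of CO2 and 13 related genes in root MS (circles) and J0571 control (squares), with SD bars (n = 3); levels of different genes are not comparable. CO2 goes from 3.01 to 3.74, and AT4G12545, AT5G46890 and AT1G62510 go from 6.95 to 7.67 in root MS to between 2.34 and 2.73.

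The genes next to the other members mostly did not pass in this comparison, where 48.9% of all features were called in either direction. AT3G45252 (0.10) and AT3G45275 (0.02) flank BIB, with low mean signals of 2.04 and 2.73 in root MS, and AT5G41940 (0.04) follows SCL23. MED10A, the gene before SCL23, was lower (-0.45, SE 0.17, adjusted p = 0.0397). Between J0571 DEX and root DEX the MED10A difference was -0.23 and did not pass (adjusted p = 0.293). The calls and non-calls of all 6 measured neighbours, those of CO2 included, were the same without J0571 control replicate 3, and MED10A was at -0.51 (adjusted p = 0.0458). Neither neighbour of JKD has a feature assigned to it alone.

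The named genes whose values ran closest to each member were found by Pearson correlation over the 18 arrays and over the 12 root arrays. The arrays of a group share their treatment, so that differences between the groups, among them those between root tips and sorted cells and those with CHX, enter these values. For JKD these were AT2G37585 (0.985), AT3G12050 (0.984), AT1G21480 (0.984), AT5G19250 (0.983) and AT4G12270 (0.983) over 18 arrays, and AT5G51960 (0.967), AT1G66490 (0.949) and AT3G58540 (0.890) over 12. BIB ran closest to AT1G28310 (0.907), AT5G13860 (0.902), AT5G07040 (0.890), AT1G73530 (0.885) and AT1G78860 (0.884), and among root arrays to SWC2 (0.921), AT1G77200 (0.918) and AT2G31600 (0.917). CO2 was matched by AT2G36630 (0.935), AT1G20790 (0.928), AT4G37420 (0.927), AT2G46375 (0.903) and AT4G40045 (0.902), and in root tips by AT1G60590 (0.878), AT4G36700 (0.869) and AT3G58250 (0.838). SCL23 had its closest genes in AT5G63500 (0.867), AT3G07190 (0.863), AT4G20300 (0.854), AT5G03100 (0.850) and AT1G56020 (0.845), with AT5G03100 (0.951), ALL1 (0.946) and AT5G15265 (0.946) over the root arrays. AT5G03100 stands in both lists of SCL23. Over 18 arrays JKD had the highest values and SCL23 the lowest. Without J0571 control replicate 3, 1 of the 5 genes nearest to JKD, 2 of those of BIB, 3 of those of CO2 and 2 of those of SCL23 were again among the nearest 5. No correlation was tested.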

How the data were processed

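The deposited values are log2 signals that the authors made with RMA, per the submitters' processing notes; RMA corrects background, normalizes by quantiles and summarises probes. Neither its version nor the set of arrays normalized in 1 run is given in the sources used here. Genes were named through the platform's probe annotation. Symbols, synonyms and gene order came from the RefSeq annotation TAIR10.1, which linked 16574 of the 16722 features of exactly 1 gene to a locus. The files name no genome build, so no coordinates or sequences are given.

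limma 3.58.1 in R 4.3.3 (data.table, version 1.17.8) fitted 1 mean per group to the values as deposited, with eBayes, two-sided moderated tests and Benjamini-Hochberg adjustment over 38408 features. The 12 root arrays, the 6 J0571 arrays, or all 18 for comparisons across the experiments, entered each fit. Intervals are at 95%, and precision is limited by the number of arrays. The fit was tested on simulated data. Summaries and figures used Python 3.11.15, numpy 2.4.6, pandas 2.3.3 and matplotlib 3.10.9.

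The members, the 8 gene lists (161 genes, 45 of them measured) and the tests were chosen with earlier results of these data known. Named are the members, list genes past the threshold (at most 6 per list and comparison, by smallest p) or completing a list of at most 5, and the nearest 5 and 3 genes by correlation. The members' neighbours in gene order were named in addition.

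The main fits did not pair arrays by replicate number. Deviations from group means of same-numbered root arrays correlated at -0.24 to 0.20, and of different-numbered ones at -0.33 to 0.30. For J0571 arrays these were 0.02 to 0.25 and -0.23 to 0.12. With 3 arrays per group these values cannot settle whether the numbers mark pairs.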

Additional observations from a re-analysis of the deposited data

How the results depend on the processing

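Each difference of a member was recomputed under quantile normalization, equal array medians, without the lowest 25% of features by mean, with limma's trend and robust options, over features of exactly 1 named gene, with other arrays in the fit, with a replicate block and without each array. Of 244 values that leave out no array, 222 kept their direction and side of the threshold. The higher levels of JKD and BIB in sorted cells and of CO2 in J0571 control passed throughout, although BIB fitted on its own 6 arrays had an adjusted p of 0.04999.

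Equal medians called SCL23 in sorted cells (0.36 without and 0.41 with DEX) and BIB with CHX (0.51). With CHX under DEX, BIB passed at 0.46 with quantile normalization, 0.65 with equal medians, and at 0.43 without the lowest 25%, with trend and robust options and in the fit of 18 arrays. With trend and robust options, calls were lost for CO2 between the DEX samples (0.36, adjusted p = 0.0672) and for SCL23 with CHX (0.38, 0.0564) and with CHX under DEX (0.31, 0.115). The replicate block ended this last call (0.31, adjusted p = 0.0714) and no other call of a member. It could not be fitted for levels between the experiments. Signs turned where no call stood: with CHX for JKD (0.0361 with equal medians) and CO2 (0.23 with quantile normalization, 0.11 with equal medians), with CHX under DEX for JKD (0.10 with equal medians) and CO2 (0.19 and 0.11), with DEX under CHX for BIB (0.000605 with equal medians) and SCL23 (0.00548 with quantile normalization), and for the difference of the DEX responses of SCL23 (0.00928 and 0.0509). The cause was not tested.

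Leaving out 1 array at a time gave 0.32 to 0.38 for CO2 between the DEX samples, 0.32 to 0.50 for SCL23 with CHX (called in 2 of 6) and 0.25 to 0.35 with CHX under DEX, and 0.30 to 0.54 for BIB with CHX under DEX (called without root DEX replicate 3). Uncalled values that changed sign ran from -0.0896 to 0.149 (BIB) and -0.0340 to 0.114 (SCL23) for DEX in J0571 cells, from -0.0692 to 0.0975 (JKD), -0.245 to 0.0370 (BIB) and -0.0115 to 0.171 (SCL23) for DEX in root tips, and from -0.190 to 0.0495 for CO2 with CHX. For DEX under CHX they ran from -0.0341 to 0.0510 (JKD), -0.0480 to 0.0723 (BIB) and -0.0799 to 0.0252 (SCL23), for the interaction from -0.0852 to 0.0816 (JKD), -0.159 to 0.0806 (CO2) and -0.0397 to 0.242 (BIB), and for the difference of responses from -0.00558 to 0.276 (BIB) and -0.139 to 0.0557 (SCL23).

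Of all features, DEX in J0571 cells called 13, and 68 in the fit of 18 arrays, 0 with the replicate block and 5 to 9 without 1 array (9 without J0571 control replicate 1). DEX in root tips called 0, and 1 in the fit of 18 arrays and 15 without root DEX replicate 1. The difference of responses called 20, 10 on its own arrays and 11 to 29 without 1 array (11 to 13 without root MS replicate 1 or 2, root DEX replicate 2 or 3, J0571 control replicate 1 or 2 or J0571 DEX replicate 2). CO2 and SCL23 lie below the array median, and the deposited values hold no call against background, so how far they lie above it is unknown.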
